A study of Mus musculus with 36 samples.

Results

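Myo15, Ptprq, Myo7a, Myo3a, Myo6, Cdh23, Pcdh15, Eps8 and Espn are genes whose products build or link the stereocilia of inner ear hair cells, and their expression was measured in the cerebellum and the hippocampus of Pogz-deficient mice. The 9 genes were chosen by name from the 24421 genes of each count table. Earlier results of the same libraries were known when they were chosen: Myo15 was included because it fell in the cerebellum and Ptprq because it rose in the hippocampus. The values of Myo15 in the cerebellum and of Ptprq in the hippocampus are therefore given as a description with no test, and the other members were tested.

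Poly(A) RNA was sequenced from both tissues of 18 adult C57Bl/6 mice, 6 of each genotype with 3 males and 3 females. Controls were Pogz fl/fl and carried no Cre. Pogz cKO+/- mice were NesCre/+; Pogz fl/+ and Pogz cKO-/- mice were NesCre/+; Pogz fl/fl. Cre was driven by the Nestin promoter, which is active in the nervous system, so cells outside that lineage kept their Pogz alleles, and an effect of Cre itself and that of the deletion cannot be told apart. Controls, Pogz cKO+/- and Pogz cKO-/- mice keep 2, 1 and 0 intact alleles there, and each change is given per Pogz allele lost.

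Stereocilia are rows of actin-filled protrusions on the apical surface of hair cells. Espin, the product of Espn, cross-links their actin filaments, and EPS8 regulates actin growth at their tips, to which the motor MYO15 carries it. Cadherin 23 and protocadherin 15 form the tip link that pulls on the transduction channel, and MYO7A works at its upper end. MYO3A moves towards the tips, MYO6 moves towards the base, and PTPRQ is a receptor phosphatase of the shaft connectors near the base. Loss of any of these genes is known to impair hearing in mice or humans. Several of the products also serve neurons, for example MYO6 in endocytosis and EPS8 in actin dynamics at synapses.

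On GRCm38, Myo15 lies on the plus strand at chr11:60469339-60528368 and Ptprq on the minus strand at chr10:107517360-107720027. Myo7a lies at chr7:98051054-98119493, Myo3a at chr2:22227503-22423370 and Myo6 at chr9:80165034-80311729. Cdh23 and Pcdh15 share chromosome 10 with Ptprq, at chr10:60302750-60696490 and chr10:73821867-74649732. Eps8 lies at chr6:137477245-137649285 and Espn at chr4:152120876-152152207. None of the 9 shared an exon base with another gene of the tables (0 bases each).

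RefSeq promoter windows of GRCm38.p6, from 250 bases before to 50 bases after a start, were matched by symbol for 7 of the 9 genes. The 3 windows shown are those of members whose counts fell with Pogz alleles, Myo15 in the cerebellum and Cdh23 and Espn in the hippocampus, and capitals mark the dinucleotide CG, which reads the same on both strands. They lie at chr11:60469089-60469388 on the plus strand for Myo15, at chr10:60696441-60696740 on the minus strand for Cdh23, and at chr4:152152340-152152639 on the minus strand for Espn, where the window closest to the start in the tables was taken from 3.
Myo15: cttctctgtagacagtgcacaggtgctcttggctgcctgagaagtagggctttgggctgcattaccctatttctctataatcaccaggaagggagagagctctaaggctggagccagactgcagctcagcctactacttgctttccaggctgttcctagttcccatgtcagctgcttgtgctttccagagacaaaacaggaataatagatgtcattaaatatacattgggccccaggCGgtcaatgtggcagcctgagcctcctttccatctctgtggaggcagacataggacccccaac
Cdh23: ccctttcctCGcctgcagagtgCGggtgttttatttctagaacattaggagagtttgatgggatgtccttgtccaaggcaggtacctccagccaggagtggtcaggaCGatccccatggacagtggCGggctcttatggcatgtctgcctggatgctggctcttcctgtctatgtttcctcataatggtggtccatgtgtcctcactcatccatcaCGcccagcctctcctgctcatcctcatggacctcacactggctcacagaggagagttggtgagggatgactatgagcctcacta
Espn: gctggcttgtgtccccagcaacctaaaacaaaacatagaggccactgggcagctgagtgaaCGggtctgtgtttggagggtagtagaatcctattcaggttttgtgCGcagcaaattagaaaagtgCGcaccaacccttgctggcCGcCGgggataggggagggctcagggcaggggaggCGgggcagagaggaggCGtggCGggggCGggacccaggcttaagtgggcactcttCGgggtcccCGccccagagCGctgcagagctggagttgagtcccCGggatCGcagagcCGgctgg
The Myo15 window holds 1 CG, and 14.1% of the 32851 windows hold that many or fewer. The Cdh23 window holds 5 and the Espn window 15, against a median of 7 over all windows, of which 94.6% hold at least 1. The windows of Myo7a, Pcdh15, Myo3a and Myo6 hold 6, 8, 16 and 22. The 3 windows thus run from few CG to above the median, where 34.6% of all windows hold at least as many as that of Espn. The count is a description of the letters only. The start used for Espn lies 182 bases from the start in the tables, so its window lies outside the listed gene.

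Library depth was 21421850 to 32544929 counts in the cerebellum and 17609321 to 45544188 in the hippocampus. The hippocampal cKO-/- library of animal Sample_1160 stood apart, with a median Spearman correlation of 0.886 with the other hippocampal libraries, against 0.983 to 0.994 for the rest. The study left out an outlier sample without naming it, and hippocampal values are given first over 17 libraries without this animal, with 5 cKO-/- mice. Pogz itself fell by 0.30 per allele on the log2 scale in the cerebellum (SE 0.0457, edgeR adjusted p = 0.000356) and by 0.28 in the hippocampus (SE 0.0205, edgeR adjusted p = 1.79e-07). Counts are summed over all exons of Pogz, those outside the deleted part included. All 6 controls carry animal labels from Sample_1129 to Sample_1192, whereas 3 cKO+/- mice (Sample_933, Sample_938 and Sample_1433) and 4 cKO-/- mice (Sample_936, Sample_1371, Sample_1379 and Sample_1385) lie outside the run from Sample_1120 to Sample_1219, a wider window that was set after seeing the data. Among the 17 hippocampal libraries, 0 cKO-/- mice lie in the range of the controls, and animal Sample_1219 is the 1 cKO-/- mouse in the wider window. Among the cerebellar libraries, Sample_1160 is the only cKO-/- mouse in the range of the controls, beside cKO+/- mice Sample_1176 and Sample_1189. A term for that range is therefore hard to separate from genotype in both tissues, whether a call is lost or kept with it.

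In control brains the members covered a wide range of levels. Per length (RPKM), Eps8 (24.7 ± 3.44, SD, n = 6) and Myo6 (24.6 ± 1.79) were highest in the cerebellum, and their libraries overlapped. Myo7a (2.48 ± 0.337) and Espn (2.09 ± 0.236) followed and overlapped each other, and Myo15 came next at 0.910 ± 0.341. Pcdh15 (0.296 ± 0.0907) overlapped both Myo15 above it and Cdh23 (0.182 ± 0.0316) below it. Ptprq and Myo3a were at 0 counts in every control cerebellum.

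In the hippocampus the order was Myo6 (19.3 ± 1.79 RPKM, SD, n = 6), Eps8 (8.52 ± 0.501), Myo7a (3.76 ± 0.623) and Espn (1.11 ± 0.153), of which no neighbours overlapped. Pcdh15 (0.873 ± 0.168) overlapped Espn, and Cdh23 (0.313 ± 0.0636) stood below both. Ptprq (0.0641 ± 0.0304) and Myo15 (0.0437 ± 0.0225) were close to the bottom and overlapped. Myo3a had 1 count over the 6 controls, and at most 2 counts in any library of either tissue, so no difference was detectable at this depth.

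**Figure D1:**
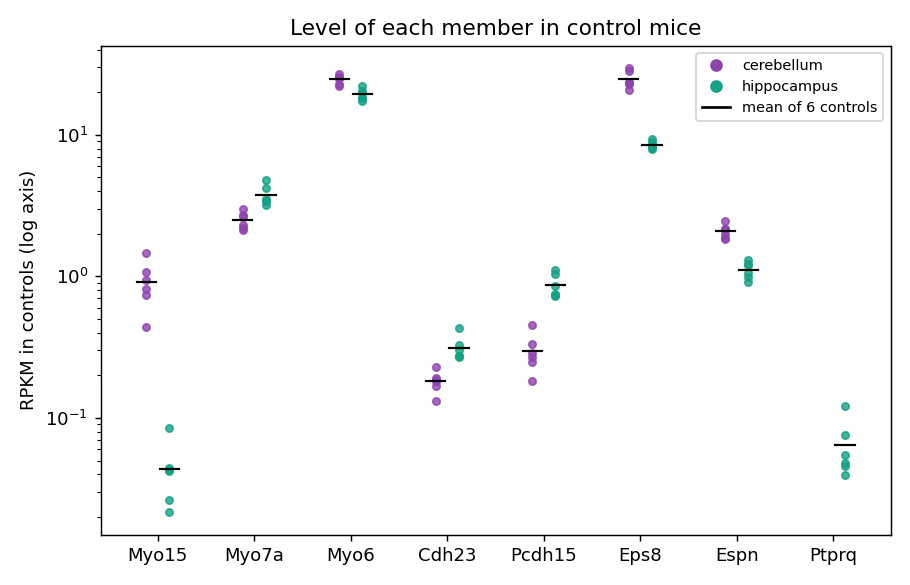
RPKM of 8 members in the 6 control mice on a log axis, with a point per library and a bar at the mean; Myo3a and the cerebellar values of Ptprq, which are 0 in all controls, are not drawn. Myo15 is the member whose cerebellar points lie farthest above its hippocampal ones.

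The tissue comparison asks how far each gene is a gene of the cerebellum or of the hippocampus before Pogz is lost. In a fit of both tables together, scaled across the tissues, Myo15 stood at 10.3 ± 3.72 CPM in control cerebella (5.07 to 16.1) and 0.529 ± 0.269 in control hippocampi (0.262 to 1.03, n = 6 each). That is a 19.6-fold higher cerebellar level (log2 difference of hippocampus minus cerebellum -4.29, SE 0.374), and Myo15 passed the filter on low counts only through cerebellar libraries. Ptprq had 107 counts in 6 control hippocampi and 0 in 6 control cerebella, at least 25.9-fold higher with 3 counts over the group taken as the floor.

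The 6 other members measured also differed between control tissues, where 73.3% of all 14870 genes tested did (36.3% higher in the hippocampus and 37% higher in the cerebellum). Eps8 (log2 difference -1.44, SE 0.115, edgeR adjusted p = 6.37e-13), Espn (-0.82, SE 0.173, adjusted p = 8.92e-05) and Myo6 (-0.26, SE 0.085, adjusted p = 0.00724) were higher in the cerebellum. Pcdh15 (1.66, SE 0.242, edgeR adjusted p = 2.91e-07), Cdh23 (0.88, SE 0.193, adjusted p = 0.000139) and Myo7a (0.69, SE 0.123, adjusted p = 8.88e-06) were higher in the hippocampus. The 2 partners of the tip link, Cdh23 and Pcdh15, were thus both higher in the hippocampus.

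Myo15, the motor that carries EPS8 and its partners to stereocilia tips, was downregulated in the cerebellum at each step of Pogz dosage. Controls ranged from 5.19 to 17.1 CPM with a median of 10.3, cKO+/- mice from 0.684 to 3.64 with a median of 2.63, and cKO-/- mice from 0.170 to 1.07 with a median of 0.402. No mutant reached the lowest control, whereas the lowest cKO+/- library (animal Sample_933) lay below the highest cKO-/- library (animal Sample_1160). Behind these values lie 151 to 451 counts per control library and 5 to 24 per cKO-/- library. Means were 10.7 ± 4.01, 2.47 ± 1.04 and 0.502 ± 0.359 CPM (SD, n = 6 each), so controls stood 4.33-fold above cKO+/- and 21.3-fold above cKO-/- mice. Among the controls alone the highest library was 3.29 times the lowest.

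The change per allele was -2.20 on the log2 scale (SE 0.197), and in this contrast 1.9% of the 14027 genes tested had all cKO-/- libraries below all controls. Within the labels Sample_1120 to Sample_1219, the 3 cKO+/- mice had 2.43 ± 0.357 CPM and the 2 cKO-/- mice 0.819 ± 0.357 (SD). In bulk tissue, fewer cells of a type and less RNA per cell cannot be told apart. Of the cerebellar neuron markers Pcp2, Calb1, Car8, Gabra6, Fat2 and Cbln3, 0 of 6 passed the edgeR test (1 at an unadjusted p under 0.05, 0 by DESeq2), and their summed level was 7609 to 9414 CPM in controls, 5563 to 9445 in cKO+/- mice and 6508 to 9366 in cKO-/- mice. The share of all genes that passed was 13.7%. The sum can hide single genes. Gabra6 had 982 ± 52.6 CPM in controls (910 to 1040) and 773 ± 206 in cKO-/- mice (498 to 1017, SD, n = 6 each). Pcp2 ranged from 285 to 451 CPM in controls and from 218 to 474 in cKO-/- mice.

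In the hippocampus Myo15 was near the floor of measurement and did not pass the filter on low counts. Controls ranged from 0.253 to 1.003 CPM with a median of 0.498, cKO+/- mice from 0.187 to 0.71 with a median of 0.355, and the 5 cKO-/- mice had 0.287, 0.338, 0.363, 0.203 and 0.360. The groups overlapped widely. Without the filter, the change per allele was -0.34 (SE 0.174, edgeR adjusted p = 0.339), and -0.40 with all 18 libraries (adjusted p = 0.297). The highest control, animal Sample_1129, also held the cerebellar granule cell gene Gabra6 at 49.4 CPM, and its summed cerebellar neuron markers were 525 CPM, against a group median of 147 in controls. Without it the change was -0.21 (adjusted p = 0.564). As a description, the hippocampal change per allele minus the cerebellar one was 1.85 for Myo15 (SE 0.301) in the joint fit.

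Ptprq, the phosphatase of the shaft connectors, was upregulated in the hippocampus with each Pogz allele lost. Controls ranged from 0.279 to 0.851 CPM with a median of 0.364, cKO+/- mice from 0.605 to 1.44 with a median of 1.18, and the 5 cKO-/- mice had 3.22, 3.60, 2.95, 3.10 and 2.30. All 5 lay above every cKO+/- library, whereas 2 cKO+/- libraries (0.605 and 0.756) lay below the highest control. Means were 0.453 ± 0.215, 1.099 ± 0.360 (SD, n = 6 each) and 3.03 ± 0.476 (n = 5), a 6.7-fold rise from controls to cKO-/- mice and a log2 change of 1.37 per allele (SE 0.133).

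Control libraries held 10 to 37 Ptprq counts each, and the gene passed the filter only through mutant libraries. In the hippocampus, 1.53% of the 14339 genes tested had all cKO-/- libraries above all controls. The left-out library of animal Sample_1160 held 0.950 CPM, inside the range of the cKO+/- mice, and with it the change per allele was 1.27 (SE 0.164). Animal Sample_1219, which lies beyond the highest control label but in the wider window, had 3.10 CPM.

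Ptprq in the cerebellum was 0 counts in all 6 controls, 3 counts over the cKO+/- mice and 12 over the cKO-/- mice. In CPM, the highest cKO-/- library (animal Sample_1385) held 0.204 and the lowest 0, and the cKO+/- libraries ranged from 0 to 0.0720. The total over the cKO-/- mice was at least 4.27-fold higher than 3 counts over the control group, and the gene did not pass the filter, so no test was made. Within the run from Sample_1120 to Sample_1219 the cKO+/- mice were at 0 and the cKO-/- mice at 0.0167 ± 0.0235 CPM (SD, n = 2).

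**Figure D2:**
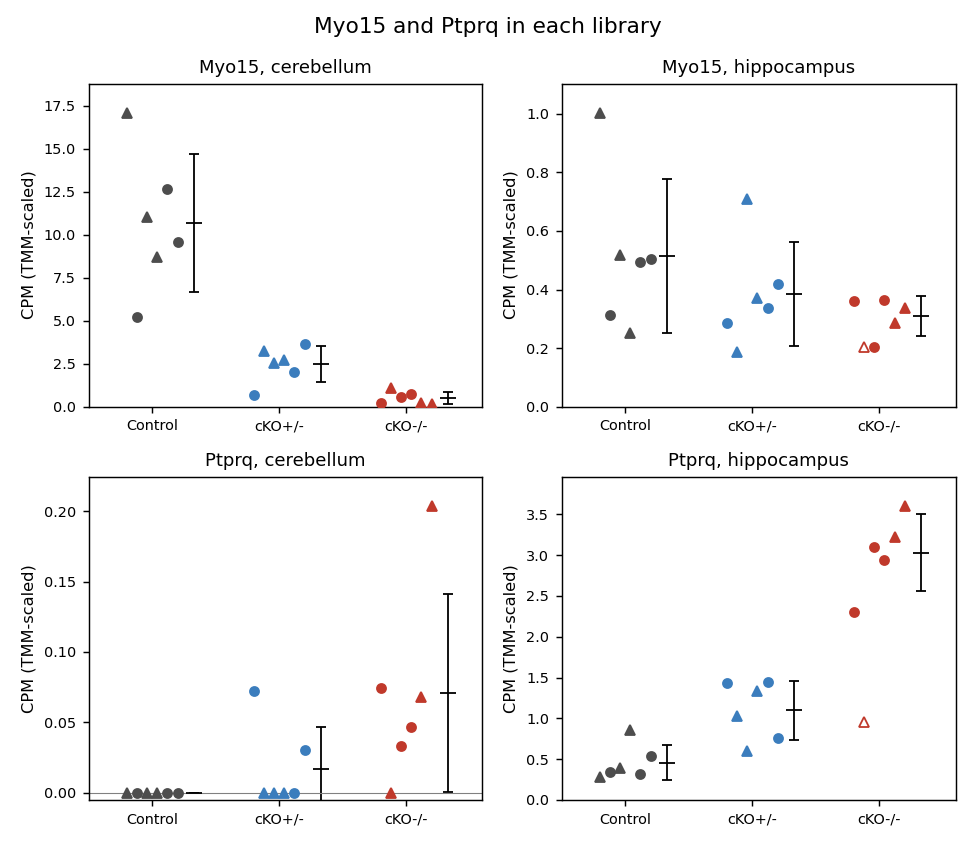
CPM of Myo15 (top) and Ptprq (bottom) in each library of the cerebellum (left) and the hippocampus (right), with males as circles, females as triangles, the left-out animal Sample_1160 as an open symbol, and the mean and SD beside each genotype. The vertical axes differ: cerebellar Myo15 falls from 5.19 to 17.1 CPM in controls to at most 1.07 in cKO-/- mice, and hippocampal Ptprq rises to between 2.30 and 3.60.

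Among the other 8 members in the cerebellum, 6 passed the filter and 2 were differentially expressed, Myo6 and Eps8, both upregulated, against 13.7% of all genes (7.11% up and 6.55% down). Myo6, the motor that moves towards the base of stereocilia, had 173 to 210 CPM in controls (median 199), 199 to 235 in cKO+/- mice (median 209) and 217 to 311 in cKO-/- mice (median 224). Every cKO-/- library lay above every control, as for 2.67% of all genes tested, and Myo6 was the 1 gene of the 6 whose groups lay apart in either direction (4.58% of all genes). The change was 0.16 per allele (SE 0.0415, edgeR adjusted p = 0.0179), from 194 ± 14.1 to 242 ± 36.9 CPM (SD, n = 6 each).

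Eps8, the actin regulator of stereocilia tips, had 102 to 146 CPM in controls (median 116), 98.5 to 184 in cKO+/- mice (median 132) and 136 to 222 in cKO-/- mice (median 153). The groups overlapped, since 2 controls (139 and 146) lay above the lowest cKO-/- library. The change was 0.21 per allele (SE 0.0612, edgeR adjusted p = 0.0324), from 122 ± 16.96 to 162 ± 30.6 CPM (SD, n = 6 each). In the cerebellum the motor Myo15, which was chosen for its fall there, and its cargo Eps8 thus had changes of opposite sign. A relation between the changes of motor and cargo was not tested.

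Both calls were lost under some settings. The Myo6 call was lost without cKO-/- animal Sample_1385 (adjusted p = 0.0501), and the Eps8 call without any of 5 animals (Sample_1129, Sample_1172, Sample_1190, Sample_1219 or Sample_1379, adjusted p up to 0.0791). With a term for animals with labels outside the range of the controls, Myo6 changed by 0.11 (adjusted p = 0.52) and Eps8 by 0.25 (adjusted p = 0.248). Meningeal markers rose beside them, with Col1a1, Dcn and Slc6a13 of 4 called (each lost with that term, at adjusted p = 0.336, 0.753 and 0.599) and a summed level of 50.9 to 72.7 CPM in controls against 58.2 to 131 in cKO-/- mice, and their part in the result was not tested. Over all genes, 7.11% rose in the cerebellum. Without the 3 cerebellar libraries above 1000 CPM of the choroid plexus gene Ttr (animals Sample_933, Sample_936 and Sample_1433), the changes were 0.17 for Myo6 and 0.23 for Eps8.

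The tip-link pair and the remaining members did not pass the threshold in the cerebellum. Cdh23 had 2.04 ± 0.355 CPM in controls, 1.98 ± 0.588 in cKO+/- mice and 1.35 ± 0.412 in cKO-/- mice (SD, n = 6 each), a change of -0.30 per allele (SE 0.118, edgeR adjusted p = 0.0954). That gene passed without cKO+/- animal Sample_1433 (adjusted p = 0.048) and with a choroid plexus score as a term (-0.37, adjusted p = 0.0405). Pcdh15 had 4.73 ± 1.45, 6.32 ± 3.68 and 6.68 ± 1.57 CPM (0.25 per allele, SE 0.137, adjusted p = 0.224). Myo7a changed by 0.08 (SE 0.071, adjusted p = 0.502) and Espn by -0.10 (SE 0.0884, adjusted p = 0.473).

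In the hippocampus, 6 of the other 8 members passed the filter and 2 were differentially expressed, Espn and Cdh23, both downregulated, against 4.44% of all genes (2.09% up and 2.35% down). Espn, the actin cross-linker, had 2.85 to 4.10 CPM in controls (median 3.53) and 1.97 to 3.63 in cKO+/- mice (median 2.69), and the 5 cKO-/- mice had 2.30, 1.65, 1.74, 2.14 and 1.77. All cKO-/- libraries lay below all controls, as for 2.12% of genes (3.65% in either direction), with cKO+/- mice between and overlapping both. The change was -0.43 per allele (SE 0.0817, edgeR adjusted p = 0.00548), from 3.50 ± 0.481 (SD, n = 6) to 1.92 ± 0.284 CPM (n = 5). The left-out animal Sample_1160 held 3.72 CPM, at the level of controls, and with it the call was lost (-0.33, adjusted p = 0.111).

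Cdh23, which forms the upper part of the tip link, had 3.02 to 4.89 CPM in controls (median 3.25) and 1.97 to 4.29 in cKO+/- mice (median 2.53), and the 5 cKO-/- mice had 2.13, 1.95, 1.90, 1.77 and 2.19. Again no cKO-/- library reached a control, and 6 cKO+/- libraries spread over both ranges. The change was -0.40 per allele (SE 0.0881, edgeR adjusted p = 0.0146), from 3.52 ± 0.716 (SD, n = 6) to 1.99 ± 0.171 CPM (n = 5). Animal Sample_1160 was lower still at 0.975 CPM, and with it the call held (-0.48, adjusted p = 0.0272). That library was also the lowest hippocampal one for Myo6 (91.0 CPM), Myo7a (14.9), Eps8 (23.2) and Pcdh15 (9.24). Its low level is thus not particular to Cdh23. Behind the values of the 5 cKO-/- mice lie 37 to 79 counts per library for Cdh23 and 40 to 74 for Espn.

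Leaving out each of the 17 animals in turn kept both calls (adjusted p up to 0.041 for Cdh23 and 0.0199 for Espn). With a term for animals outside the range of the controls both were lost, at larger fitted changes of -0.49 for Cdh23 (adjusted p = 0.354) and -0.63 for Espn (adjusted p = 0.066). Of 6 hippocampal neuron markers, 2 fell beside them, where 2.35% of all genes fell: the dentate granule cell genes Dsp (-0.56, SE 0.119, edgeR adjusted p = 0.0119) and C1ql2 (-0.45, SE 0.0898, adjusted p = 0.00729). Prox1, also a marker of these cells, was at -0.15 (adjusted p = 0.311), Neurod6 at 0.08 (adjusted p = 0.428) and Fibcd1 at 0.07 (adjusted p = 0.529). With the term for the controls' range, Dsp was at -0.08 (adjusted p = 0.887) and C1ql2 at -0.40 (adjusted p = 0.426). The summed level of the 6 was 675 to 876 CPM in controls and 635 to 738 in cKO-/- mice. Their part in the result was not tested.

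The remaining members did not pass in the hippocampus. Pcdh15 was highest in cKO+/- mice, with 13.95 ± 2.69 CPM in controls, 20.2 ± 5.72 in cKO+/- mice (SD, n = 6 each) and 16.4 ± 2.45 in cKO-/- mice (n = 5), and the change per allele was 0.15 (SE 0.106, edgeR adjusted p = 0.439). The partners of the tip link thus had hippocampal changes of opposite sign, of which that of Pcdh15 was within the spread between mice. Myo6 changed by 0.09 (SE 0.0452, adjusted p = 0.295), Myo7a by 0.07 (SE 0.0473, adjusted p = 0.405) and Eps8 by 0.06 (SE 0.0409, adjusted p = 0.389).

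**Figure D3:**
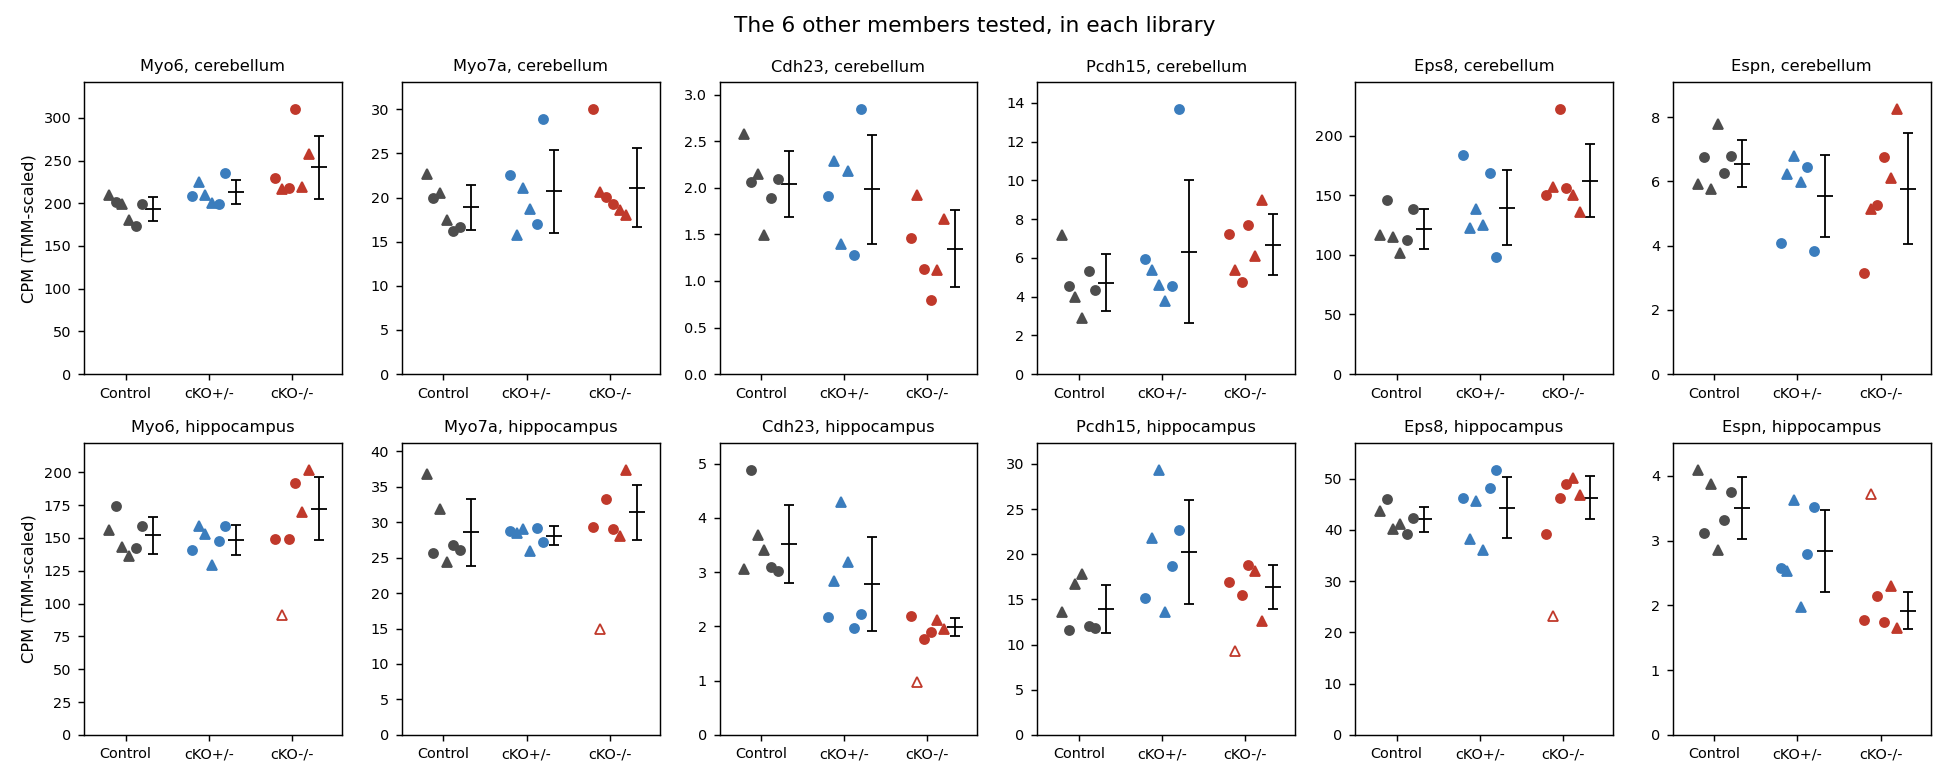
CPM of the 6 other members tested, in each library of the cerebellum (top) and the hippocampus (bottom), with males as circles, females as triangles, the left-out animal Sample_1160 as an open symbol, and the mean and SD beside each genotype. Cdh23 and Espn fall in the hippocampus to at most 2.19 and 2.30 CPM in the 5 cKO-/- mice, and cerebellar Myo6 rises to at least 217.

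The size of the effect was compared between the tissues by the interaction of tissue and alleles, which 1.63% of 14870 genes passed. Of the 6 other members, 0 passed (1 at an unadjusted p under 0.05, 0 by DESeq2). The hippocampal change minus the cerebellar one was -0.34 for Espn (SE 0.127, edgeR adjusted p = 0.182), -0.15 for Eps8 (SE 0.0792, adjusted p = 0.376) and -0.12 for Cdh23 (SE 0.148, adjusted p = 0.786). A call in 1 tissue and not in the other is therefore not shown to be a difference between tissues for any of the 6. Between females and males, 0 of 7 members tested differed in the cerebellum (1 at an unadjusted p under 0.05, 0 by DESeq2) and 0 of 7 in the hippocampus (0 unadjusted, 0 by DESeq2), against 0.0499% and 0.907% of all genes.

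**Figure D4:**
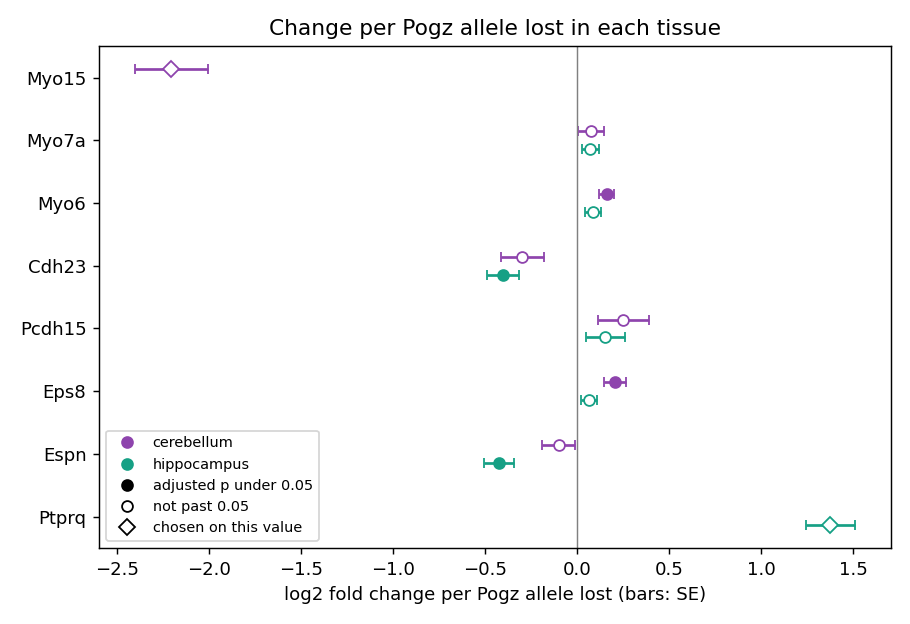
Log2 fold change per Pogz allele lost with its SE for each member tested in the cerebellum (purple) and the hippocampus (green); filled points have an adjusted p under 0.05, and diamonds mark the values on which Myo15 and Ptprq were chosen. Myo15 at -2.20 and Ptprq at 1.37 were chosen for these changes, and the others run from -0.43 to 0.25.

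Further genes of stereocilia were taken from a list of 31, of which 19 passed the filter in the cerebellum. Of these, 1 rose and 2 fell, where 13.7% of all genes tested were called, with a median log2 change of 0.09 against 9e-04 over all genes. Ush1g, whose product is a scaffold that joins MYO7A to harmonin at the tip link, was downregulated, with a log2 change per allele of -1.101 (SE 0.157, edgeR adjusted p = 0.000165). Its level was 1.55 to 3.02 CPM in controls (median 1.82), 0.679 to 1.49 in cKO+/- mice (median 1.11) and 0.170 to 1.05 in cKO-/- mice (median 0.383). No mutant library reached the lowest control, and the 2 mutant groups overlapped each other.

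The Ush1g call held without each of the 18 animals (adjusted p up to 0.000905) and with a term for animals outside the range of the controls (-1.0025, adjusted p = 0.0387). The gene of its partner, Myo7a, had 18.9 ± 2.56 CPM in controls and 21.1 ± 4.48 in cKO-/- mice. In the hippocampus Ush1g was under the filter, at 0.741 ± 0.189 CPM in controls and 0.483 ± 0.177 in cKO-/- mice. The other called genes of the list changed little: Fscn1, an actin cross-linker, by 0.18 (SE 0.0533, adjusted p = 0.0299), and Myo1c, a motor of adaptation, by -0.17 (SE 0.0433, adjusted p = 0.0157). Both calls were lost with that term (0.019, adjusted p = 0.938 for Fscn1 and -0.13, adjusted p = 0.433 for Myo1c), and Fscn1 was called in 12 of the 18 fits without 1 animal (adjusted p up to 0.0891). In the hippocampus 0 of 20 passed edgeR's test (4 at an unadjusted p under 0.05, 1 by DESeq2), beside 4.44% of all genes.

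Of 28 other genes of hearing loss, 18 were tested in the cerebellum, with 3 up and 3 down, beside the 13.7% of all genes, and a median of 0.01. Gjb2, a connexin, rose by 0.41 (SE 0.0927, adjusted p = 0.00855), Pou3f4 by 0.33 (SE 0.102, adjusted p = 0.0402) and Wfs1, a protein of the endoplasmic reticulum, by 0.11 (SE 0.0355, adjusted p = 0.0431). The serine protease gene Tmprss3 changed by -0.64 (SE 0.161, adjusted p = 0.0154), and the nonmuscle myosins Myh14 and Myh9 by -0.24 (SE 0.0443, adjusted p = 0.00216) and -0.18 (SE 0.0557, adjusted p = 0.041). With a term for animals outside the range of the controls, all 6 calls were lost, at adjusted p = 0.599 for Gjb2, 0.665 for Pou3f4, 0.7 for Wfs1, 0.429 for Tmprss3, 0.257 for Myh14 and 0.523 for Myh9. Of the 18 fits without 1 animal, 10 called Pou3f4, 7 called Wfs1 and 10 called Myh9 (adjusted p up to 0.111, 0.113 and 0.112). In the hippocampus 1 of 16 passed, beside 4.44% of all genes, with a median of 0.003 over the 16: Wfs1 went from 196 ± 57.2 CPM in controls to 97.4 ± 11.1 in cKO-/- mice (-0.50 per allele, SE 0.0775, adjusted p = 0.000875, and 0.166 with the term for the controls' range). Wfs1 differed between the tissues in its change per allele (-0.62, SE 0.087, adjusted p = 8.06e-05).

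Of 20 other unconventional myosins, the family of Myo15, Myo7a, Myo3a and Myo6, 14 were tested in the cerebellum, of which 3 fell, where 6.55% of all genes did, with a median of 0.04 over the 14. Myo1a changed by -0.56 (SE 0.128, adjusted p = 0.00932) and Myo9b by -0.22 (SE 0.0658, adjusted p = 0.0353), beside Myo1c above. Both calls were lost with the term for the controls' range (adjusted p = 0.357 for Myo1a and 0.465 for Myo9b), and Myo9b was called in 13 of 18 fits without 1 animal (adjusted p up to 0.091). In the hippocampus 1 of 18 passed, again beside 4.44%: Myo1h changed by -0.57 (SE 0.11, adjusted p = 0.00612, and 0.108 with that term), from 2.28 ± 0.385 to 0.964 ± 0.171 CPM. Of the other 4 R3 receptor phosphatases, relatives of Ptprq, Ptpro rose by 0.47 (SE 0.138, adjusted p = 0.0319) and Ptprh changed by -0.54 (SE 0.123, adjusted p = 0.00865) in the cerebellum. With that term Ptpro was at 0.18 (adjusted p = 0.75) and Ptprh at -0.38 (adjusted p = 0.451), and Ptpro was called in 13 of 18 fits without 1 animal (adjusted p up to 0.109). In the hippocampus 0 of 4 passed edgeR's test (2 at an unadjusted p under 0.05, 2 by DESeq2). The shares called over all genes were 13.7% in the cerebellum and 4.44% in the hippocampus.

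Some defining markers of hair cells were at or near 0 in both tissues. The hair cell transcription factors Pou4f3 and Atoh1 had at most 2 and 3 counts in any cerebellar library and at most 1 and 0 in any hippocampal one, and the hair cell receptor gene Chrna9 at most 3 in either tissue. Other markers of the list were measured, among them Otof and Strc in both tissues and Slc17a8 in the hippocampus. Which cells expressed them was not tested. Tmc1 and Slc26a5 were under the filter in the cerebellum but not at 0. Their levels were 0.180 ± 0.123 and 0.210 ± 0.193 CPM in controls, and 0.680 ± 0.461 and 0.509 ± 0.158 in cKO-/- mice (SD). The summed level of all 13 markers was 11.4 to 18.6 CPM in control and 14.7 to 26.5 in cKO-/- cerebella. Of the 3 tested in the cerebellum, Otof changed by -0.40 (SE 0.13, edgeR adjusted p = 0.0471, and 0.331 with the term for the controls' range), called in 5 of 18 fits without 1 animal, and in the hippocampus 0 of 4 passed edgeR's test (1 at an unadjusted p under 0.05, 1 by DESeq2). Over all genes, 13.7% were called in the cerebellum and 4.44% in the hippocampus.

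Of the 3 listed genes on each side of Myo15 and Ptprq, those measured did not pass the test of the allele effect. Drg2, which ends 634 bases before Myo15, was at 51.9 ± 2.82 CPM in control and 49.0 ± 6.20 in cKO-/- cerebella (-0.04 per allele, SE 0.0366, adjusted p = 0.469). Alkbh5, which lies 9315 bases after Myo15, changed by 0.05 (SE 0.0404, adjusted p = 0.458). Gid4, Atpaf2, Llgl1 and Flii also did not pass in either tissue. Around Ptprq, Otogl, itself a hearing loss gene 42283 bases away, was at 1.11 ± 0.255 CPM in control and 1.70 ± 0.477 in cKO-/- hippocampi (0.29 per allele, SE 0.0986, adjusted p = 0.105). Lin7a and Ppp1r12a did not pass in the hippocampus either, and Myf5, Myf6 and Gm29685 were under the filter.

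Over the 18 cerebellar libraries, the 5 genes whose log2 CPM followed Myo15 most closely included Ltbp2 (Pearson r = 0.953), Pogz (0.938), Gcgr (0.914) and Cdc20 (0.903). With the genotype means taken out, r was 0.626 for Ltbp2, 0.767 for Pogz, 0.406 for Gcgr and 0.195 for Cdc20. These values share libraries, scaling and the genotypes, and the median absolute r with Myo15 over all genes was 0.354. Among members, r with Myo15 was 0.578 for Cdh23, -0.609 for Myo6 and -0.654 for Eps8. Without the genotype means, on which Myo15 was chosen, r was 0.241 for Cdh23, 0.156 for Myo6 and -0.44 for Eps8. Over the 17 hippocampal libraries, Ptprq was followed by Dach2 (r = 0.957), Klhl13 (0.952), Ccdc91 (0.944), Rnf17 (0.918) and Pstpip2 (0.915), of which Dach2 kept 0.486, Klhl13 0.561 and Pstpip2 0.0901 with the genotype means taken out. The members Espn and Cdh23 ran opposite to Ptprq, with r of -0.889 and -0.8, and -0.574 and -0.423 without the genotype means.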

How the data were processed

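The authors sequenced poly(A) RNA, aligned the reads and counted them per gene with STAR (250a in the submitters' processing notes), and deposited these counts without normalization. The notes name mm9, whereas the exon coordinates in the tables are those of GRCm38. The use of strand is not given in the sources used here, so reads of a gene and of an antisense partner cannot be told apart. Counts of genes that share sequence with a copy are uncertain.

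The members and gene lists were chosen with earlier results of these data known. All 9 members, Pogz, the listed genes past the threshold, the 5 genes most like Myo15 and Ptprq, and the 3 nearest genes on each side are named. Some genes that this rule selects are not reported here. The filter kept genes with more than 1 CPM in 6 or more libraries. Tests ran in edgeR 4.0.16 (R 4.3.3) by its quasi-likelihood F-test (legacy=TRUE) after TMM scaling, with terms for sex and for the intact alleles lost. Benjamini-Hochberg adjustment ran over all genes, at an FDR of 0.05. CPM and RPKM are TMM-scaled, and correlations use log2(CPM + 0.5). Tissues were compared over 35 libraries fitted together. Alternatives were DESeq2 1.42.0, other scaling, no filter, the bias-adjusted fit, no sex term, genotype as a factor, a term for animal numbers, the full set of 18 hippocampal libraries and leaving out each animal. A second term for animal numbers (outside Sample_1120 to Sample_1219), the choroid plexus score and the fits without the libraries high in Ttr were chosen after seeing the data. The edgeR fit was tested on simulated data.

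Each animal gave both tissues, as the animal numbers in the labels show. Within an animal, the deviations of its libraries from their genotype means correlated at a median of 0.252 (-0.35 to 0.43, 12 of 17 animals above 0.1). Genes near 1 CPM rest on few counts at 17609321 to 45544188 counts per library, and bounds from a floor of 3 counts cover counting error only. The assignment of each table to a tissue was checked against neuron markers.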

Additional observations from a re-analysis of the deposited data

Results flagged for a closer look

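Of the 46 groups of member values tested, each with 5 or 6 libraries and more than 3 counts in total, 6 held a library far from the rest. The rule was Dixon's test at its 95% critical value, where chance gives about 5% of groups. Hippocampal Myo15 in control animal Sample_1129 was 1.0 CPM, against 0.519 for the next library, and this library also held Gabra6 at 49.4 CPM. Hippocampal Cdh23 in control animal Sample_1155 was 4.89 CPM, against 3.68, and leaving it out moved the change per allele from -0.40 to -0.31. Cerebellar Eps8 in cKO-/- animal Sample_1219 was 222 CPM, against 157, and without it the change was 0.16 and the call was lost. Cerebellar Myo7a in cKO-/- animal Sample_936 was 30 CPM, against 20.6. Cerebellar Pcdh15 in cKO+/- animal Sample_1433 was 13.7 CPM, against 5.94, and animals Sample_936 and Sample_1433 are among the 3 cerebellar libraries high in Ttr. Cerebellar Ptprq in cKO-/- animal Sample_1385 was 0.204 CPM, against 0.0747.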

How the results depend on the processing

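Of the 8 other members, 2 were called in each tissue. With a term for animals outside the range of the controls, 0 were called in the cerebellum (134 of all genes, against 1916) and 0 in the hippocampus (30, against 636), and 2 genes passed the interaction, against 243. With the term for animals outside Sample_1120 to Sample_1219, 1 was called in the cerebellum (308 of all genes) and 0 in the hippocampus (68), and 18 genes passed the interaction. The term for animals outside Sample_1120 to Sample_1219 leaves 1 hippocampal cKO-/- mouse beside the controls. With all 18 hippocampal libraries, 1 was called (246 of all genes), and 1 had groups that lay apart. DESeq2 called 1056 genes in the hippocampus and 461 in the interaction. Leaving out each animal gave 1 to 3 members called in the cerebellum (1 without Sample_1129, Sample_1172, Sample_1190, Sample_1219, Sample_1379 or Sample_1385, and 3 without Sample_1433), with 935 (without Sample_1385) to 2572 (without Sample_1160) of all genes. It gave 2 in every hippocampal fit, with 286 (without Sample_1371) to 937 (without Sample_936) genes, and 115 (without Sample_1190) to 469 (without Sample_1160) genes in the interaction.

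Sign changes were those of values that passed no threshold or were not tested. With the term for the range of the controls, Pcdh15 in the hippocampus was -0.14, and the interaction was 0.34 for Ptprq and 0.054 for Myo7a. With that for animals outside Sample_1120 to Sample_1219, Pcdh15 in the cerebellum was -0.0061, and the interaction was 0.046 for Myo7a, 0.041 for Cdh23 and 0.11 for Pcdh15. Over the animals left out, the interaction ran from -0.066 to 0.037 for Myo7a and from -0.23 to 0.040 for Pcdh15. The sex effect of Espn in the hippocampus was -0.00062 with DESeq2, -0.0017 with other size factors and -0.0073 without the filter, and that of Ptprq was -0.055 with all 18 libraries. Over the animals left out, sex effects ran from -0.057 to 0.021 for Myo6 in the cerebellum, and in the hippocampus from -0.050 to 0.20 for Ptprq, -0.059 to 0.035 for Myo6 and -0.074 to 0.063 for Espn.

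Myo15 in the cerebellum stayed between -2.22 and -2.12 and Ptprq in the hippocampus between 1.27 and 1.63 under the 10 settings that keep or leave out libraries, terms and scaling. With the animal as a replicate block, the tissue difference of Myo15 was -4.32, and the block changed no call among the members. The causes of these changes were not tested. Depth limits Myo3a, hippocampal Myo15 and cerebellar Ptprq.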

Other observations

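Markers of other tissues and brain regions also varied in these libraries. Of 6 choroid plexus markers, 0 of 5 tested in the cerebellum and 0 of 6 in the hippocampus passed edgeR's test (1 and 0 at an unadjusted p under 0.05, 1 and 0 by DESeq2), while their summed level spread from 12.3 to 3165 CPM in cerebellar and from 16.9 to 4963 CPM in hippocampal libraries. Of 4 ependymal markers, 0 of 2 and 0 of 3 passed (1 and 0 unadjusted, 1 and 0 by DESeq2). Over all genes, 13.7% passed in the cerebellum and 4.44% in the hippocampus. Of 7 markers of brainstem nuclei, Tph2, which makes serotonin, rose in the cerebellum by 0.65 per allele (SE 0.116, edgeR adjusted p = 0.00166), from 0.780 ± 0.212 to 1.89 ± 0.554 CPM (adjusted p = 0.248 with a term for animals outside the range of the controls), and the 1 tested in the hippocampus did not pass. The summed brainstem markers were 3.58 to 18.5 CPM in control cerebella and reached 54.8 in cKO-/- animal Sample_936 (cKO-/- median 17.8). The 5 midbrain markers were under the filter in both tissues, but single mutant cerebella stood out. Their summed level was at most 0.275 CPM in controls. It reached 9.65 in cKO-/- animal Sample_1385, 5.82 in cKO+/- animal Sample_1433 and 1.80 in cKO-/- animal Sample_1379 (cKO-/- median 0.214). The part of such tissue in the results was not tested. In the hippocampus, the meningeal gene Lum rose by 0.46 (SE 0.12, adjusted p = 0.0321, 0.479 with that term, and called in 10 of 17 fits without 1 animal), and the summed level of the 4 meningeal markers was 21.2 to 69.3 CPM in controls and 51.2 to 120 CPM in cKO-/- mice. Of 6 hippocampal neuron markers, Neurod6 rose in the cerebellum by 0.25 (SE 0.0784, adjusted p = 0.0377, 0.331 with that term, and called in 12 of 18 fits without 1 animal).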
